A study of Citrullus lanatus with 4 samples.

Results

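Flowers and floral buds of the male fertile watermelon line DAH3615 were compared gene by gene. The genes described here are all those with at least 1 count in either of the 2 DAH3615 libraries, which were 19362 of the 23440 genes in the count table. DAH3615 is heterozygous for the male sterility gene (Msms). It is the fertile near-isogenic line of DAH3615-MS (msms), a genic male sterile line whose flowers make no pollen, and both came from 1 backcross population that segregates for the gene. Plants were grown in a greenhouse, buds were taken the day before flowering, and mature flowers were taken on the first day of flowering from lower nodes of the vine, so organ and node position cannot be told apart. Each of the 4 conditions (floral bud and flower of each line) was sequenced as 1 library, and the sources used here do not state whether a library held tissue of several plants. No spread between plants was therefore measured, and the DAH3615 comparison has no p-value.

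In the last day before a watermelon flower opens, petals and filaments extend, the nurse tissue of the anther (the tapetum) has been broken down, and pollen matures. Mature pollen stores transcripts for the tube that it will grow, among them those for wall-loosening enzymes, actin-binding proteins and the small GTPases that direct growth to the tip. The opened flower attracts pollinators with scent, pigment and sugar.

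The counts on genes summed to 5631190 in the DAH3615 floral bud and 6315796 in the flower, and to between 5239032 and 5778852 in the DAH3615-MS libraries. Levels are given as raw counts or as CPM, the counts relative to a library size scaled by the trimmed mean of M values (TMM). The floor of 3 counts, used where a library had 0, corresponded to 0.548 CPM in the bud and 0.508 CPM in the flower. A gene was called higher or lower in the flower when the whole 95% exact (Clopper-Pearson) interval of its ratio lay beyond 2-fold. Such intervals cover counting error only. With 0 counts in the bud, a gene needed 10 counts in the flower to be called, and with 100 counts in the bud it needed 273. In both libraries 2761 genes were under 9 counts, the fewest that could give a call, and differences in them were not detectable at this depth.

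Most genes were at a similar level in both organs. The median log2 ratio of flower to bud was −0.02, and the middle 50% of genes, from the 25th percentile to the 75th percentile, lay between −0.58 and 0.49. Of the 19362 genes, 1199 (6.19%) were called higher in the flower and 1054 (5.44%) lower. Among the 14083 genes with at least 50 counts over both libraries, 7.68% were higher and 6.48% lower. The interval lay beyond 4-fold for 333 higher and 273 lower genes, and beyond 8-fold for 94 and 83. A test that allows for plant-to-plant variation at an assumed biological coefficient of variation of 0.4 called far fewer, 65 in each direction, so the number called depends on a spread that these libraries do not measure. In bulk tissue, fewer cells of a type and less RNA per cell cannot be told apart.

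**Figure D1:**
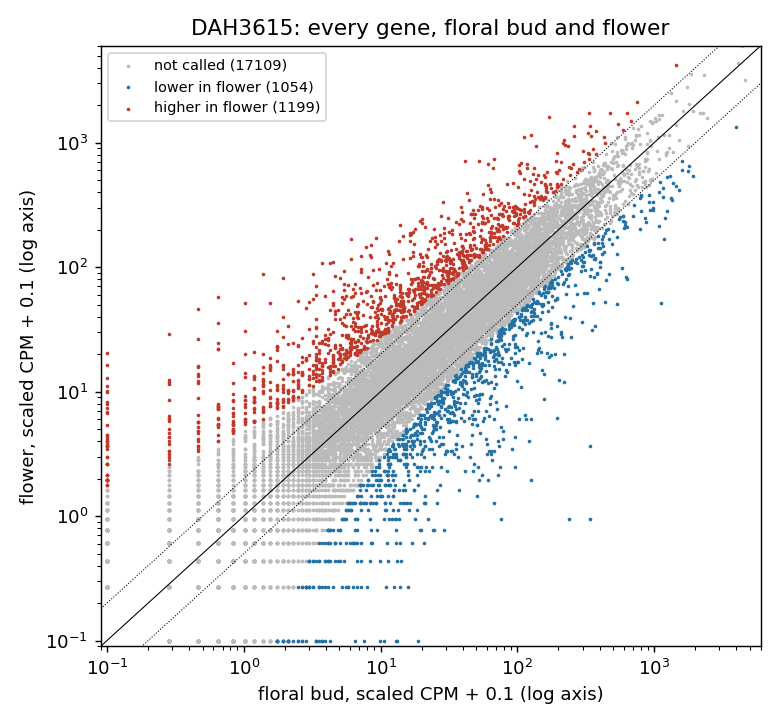
Scaled CPM of every gene in the DAH3615 floral bud (x axis) and flower (y axis), both on log axes with 0.1 CPM added. Each point is 1 gene in 1 library per organ, the solid line marks equal levels and the dotted lines 2-fold differences; the 1199 genes called higher are red and the 1054 called lower are blue.

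Both organs used largely the same genes. A count was recorded in both libraries for 18122 genes, in the bud alone for 593 and in the flower alone for 647, and no gene found in 1 organ alone exceeded 121 counts. The 100 genes with the most counts held 17.0% of all counts in either organ, but only 47 genes were on both of those lists.

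Among the described genes with the most reads, methionine synthase and glyceraldehyde-3-phosphate dehydrogenase were lower in the flower, and a thiolase of fatty acid breakdown and an anion exchanger were higher. Descriptions were at hand for 1934 of the genes compared, those with the lowest gene numbers. In that subset 118 genes (6.10%) were higher and 83 (4.29%) lower. Cla002903, a 5-methyltetrahydropteroyltriglutamate-homocysteine methyltransferase (methionine synthase, which makes methionine from homocysteine), had 21589 counts in the bud and 7947 in the flower, 2.93-fold lower (counting interval 2.86 to 3.01). The glycolytic enzyme glyceraldehyde-3-phosphate dehydrogenase, Cla002597, had 10520 and 3202 counts and was 3.55-fold lower. Against that, the 3-ketoacyl-CoA thiolase Cla002944, which carries out the last step of fatty acid beta-oxidation, had 4081 counts in the bud and 12468 in the flower, 2.83-fold higher (2.73 to 2.93). An anion exchanger, Cla000979, went from 3492 counts in the bud to 10288 in the flower, a 2.73-fold difference. The described gene with the most reads in the flower was the beta-D-glucosidase Cla000032, with 12713 counts in the bud and 20640 in the flower. Its ratio, with a counting interval of 1.47 to 1.54, stayed under 2-fold, and it had 4 and 0 counts in the DAH3615-MS bud and flower. Laccase-8, Cla003115, a copper oxidase of phenolic compounds, showed the same profile, with 4893 and 7015 counts in DAH3615 against 2 and 0 in DAH3615-MS. The SEC14 cytosolic factor Cla002201, of a family of phospholipid transfer proteins, was at 5879 and 6622 counts, a ratio of 1.04.

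Among described genes with at least 100 counts in the higher library, the 8 steepest differences towards the flower were in metabolic enzymes, kinases, a homeobox factor and a light regulated protein. Alpha-hydroxynitrile lyase Cla001815, which releases cyanide from cyanohydrins, had 3 counts in the bud and 130 in the flower, 40.2-fold higher (13.4 to 197). A cytochrome P450, Cla000234, had 20 and 636 counts and was 29.5-fold higher (18.9 to 48.6). The light regulated protein-like gene Cla001482 had 23 and 635 counts, 25.6-fold higher. A homeobox leucine zipper factor, Cla002419, had 24 and 654 counts, 25.2-fold higher (16.8 to 39.7). Kinases were among them too. Serine/threonine-protein kinase 3, Cla000707, had 33 counts in the bud and 687 in the flower (19.3-fold), and the receptor kinase Cla001254 had 46 and 718 (14.5-fold). Chalcone synthase, Cla000287, the first committed enzyme of flavonoid synthesis, had 80 and 1044 counts, 12.1-fold higher (9.63 to 15.4). Malate synthase, Cla002601, an enzyme of the glyoxylate cycle, had 61 and 791 counts, 12.0-fold higher. All 8 were also called higher in DAH3615-MS flowers, by 9.17-fold to 65.4-fold, in libraries whose counts had no part in the choice of the genes. Each passed edgeR's quasi-likelihood test of an organ effect shared by both lines, with adjusted p between 0.000159 and 0.000542. That test includes the DAH3615 libraries by which the 8 were chosen, so its p-values are partly set by the choice and are not separate support.

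By the same limits, the 8 steepest differences towards the bud included genes of wall, lipid and sugar transport functions, and some of the 8 had at most a few counts in the sterile line. MLO-like protein 9, Cla002071, of a family known for powdery mildew susceptibility, had 105 counts in the bud and 4 in the flower, 28.3-fold lower (10.7 to 106). The polygalacturonase Cla001080, which cuts pectin, had 357 and 16 counts, 24.1-fold lower (14.6 to 42.6), against 12 and 4 in DAH3615-MS. A cytochrome P450, Cla001029, had 260 and 13 counts, 21.6-fold lower, against 2 and 1 in DAH3615-MS. The proline-rich protein Cla001659 had 689 and 35 counts in DAH3615, 21.2-fold lower, and 459 and 16 in DAH3615-MS. Non-specific lipid-transfer protein Cla002146 had 326 and 18 counts, 19.5-fold lower (12.2 to 33.4), against 1 count in each DAH3615-MS library. The 4-coumarate-CoA ligase Cla002689, which activates cinnamic acids for phenylpropanoid synthesis, had 1193 and 70 counts, 18.4-fold lower (14.4 to 23.8), and was 30.5-fold lower in DAH3615-MS. Both genes described as sucrose transporter 6 were among the 8 largest as well, and are given with the sugar genes.

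Larger differences were found in genes that the descriptions at hand do not cover. Cla010810, at 30081290 to 30082253 on chromosome 7, had 1848 counts in the bud and 5 in the flower, 399-fold lower (171 to 1230), and 3063 and 3 counts in DAH3615-MS. Cla022857, at 14761861 to 14765600 on chromosome 11, had 1299 and 5 counts, 280-fold lower (120 to 865), whereas DAH3615-MS had 43 and 91. In the other direction, Cla021706, at 5478678 to 5482196 on chromosome 5, had 1 count in the bud and 170 in the flower, 158-fold higher (27.9 to 6258), with 1 and 175 in DAH3615-MS. Cla021554, at 4103524 to 4104188 on the same chromosome, had 2 and 273 counts, 126-fold higher, with 84 and 549 in DAH3615-MS. Cla010810 and both higher genes were thus called in the same direction in both lines, and Cla022857 was not called in DAH3615-MS. All positions are on version 1 of the watermelon reference genome, as the count table gives them.

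Genes of pollen and tip growth showed calls in both directions. Of the 27 genes on this list, 2 were higher, 3 lower and 22 not called. The 5 called are 18.5% of the list, against 11.6% of all genes and 10.4% of the described genes. The list had a median log2 ratio of −0.09, against −0.02 over all genes. The summed level of the list was 2539 CPM in the bud and 2981 CPM in the flower, and 1849 and 1979 CPM without the LIM domain protein. The member with the most reads was the LIM domain protein Cla001608, of a family of actin-bundling proteins, with 3772 counts in the bud and 5913 in the flower (ratio 1.45, 1.39 to 1.51) and 1 count in each DAH3615-MS library. Pollen allergen Phl p 11, Cla002347, had 2018 and 3120 counts (ratio 1.43) against 3 and 6. Profilin, Cla000908, which binds actin monomers, had 332 and 282 counts against 16 and 4, and the phosphatidylinositol-4-phosphate 5-kinase Cla003061, of a family that makes a signalling lipid of the tube tip, had 141 and 158 against 2 and 1. None of these 4 genes was called in DAH3615. They are not typical of the list in the sterile line. Of its 24 genes with at least 20 counts, 6 were at least 10-fold higher in DAH3615 in the summed level of both organs, 2 between 2-fold and 10-fold, and 16 under 2-fold.

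The 5 list members that were called lay on both sides. Cla003043, of the pollen Ole e 1 allergen and extensin family, had 1142 counts in the bud and 170 in the flower, 7.25-fold lower (6.17 to 8.57), and 108 and 8 in DAH3615-MS. A Rac-like GTP binding protein, Cla001586, of the family of small GTPases that direct tip growth, had 264 and 63 counts, 4.52-fold lower, and formin 3, Cla002227, an actin nucleator, had 475 and 198, 2.59-fold lower. Exocyst complex component 7, a subunit of the complex that tethers secretory vesicles to the plasma membrane, was higher at 2 adjacent gene models: Cla002617 had 259 and 986 counts (3.53-fold, 3.07 to 4.06) and Cla002618 had 109 and 429 (3.65-fold, 2.95 to 4.54). The models lie on the same strand of chromosome 3 with 83 bases between them, and whether they are 1 gene was not tested. All 5 were called in the same direction in DAH3615-MS, whose flowers make no pollen.

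The remaining list members were not called. The second formin 3, Cla001719, had 782 and 1600 counts, a ratio of 1.90 whose interval of 1.74 to 2.07 spans the threshold, and gelsolin, Cla002760, which severs actin filaments, had 1196 and 1650. In DAH3615-MS these 2 genes had 845 and 1866 and 765 and 964 counts. Formin 2B, Cla002220, had 74 and 112 counts in DAH3615. Among the other phosphatidylinositol-4-phosphate 5-kinases, Cla001947 had 2296 counts in the bud and 1996 in the flower (2430 and 2427 in DAH3615-MS), Cla002528 had 264 and 268, Cla000578 had 152 and 211, Cla000575 had 65 and 95, and Cla002795 had 176 and 89 (2.13-fold lower, 1.64 to 2.79). Exocyst complex component 84B, Cla001003, was at 145 and 88 counts, and the self-incompatibility protein Cla002935 at 101 and 48, 1.78-fold and 2.27-fold lower. Interactor of constitutive active ROPs 3, Cla000543, had 53 and 35 counts. The last 4, with 20 to 50 counts over both libraries, could show only large differences: ROP guanine nucleotide exchange factor Cla001228 had 20 and 28 counts, the other Ole e 1 family genes Cla001499 and Cla002155 had 15 and 33 and 18 and 10, and GEX1, Cla001315, a membrane protein of gametes in Arabidopsis, had 11 and 10.

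**Figure D2:**
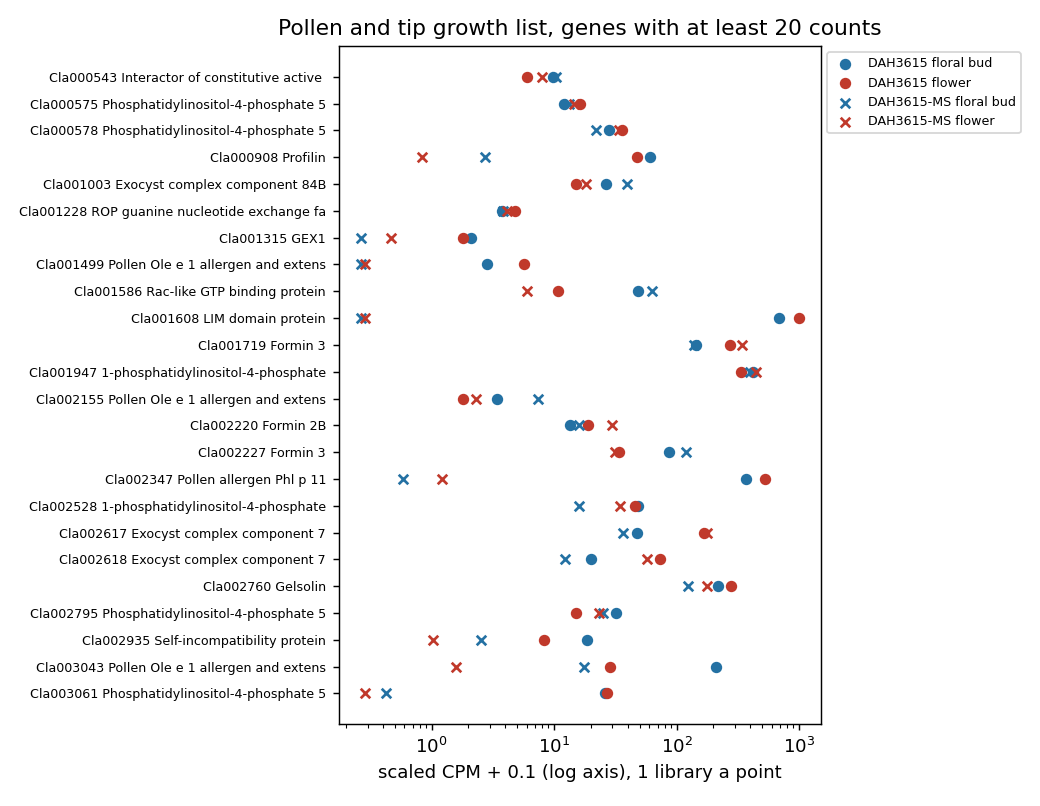
Scaled CPM plus 0.1 (log axis) of the 24 genes of the pollen and tip growth list with at least 20 counts over the DAH3615 libraries, 1 point per library; circles are DAH3615, crosses DAH3615-MS, blue floral bud and red flower. For LIM domain protein Cla001608 and Phl p 11 Cla002347 both crosses lie far below both circles.

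Genes with counts in DAH3615 and none in DAH3615-MS were called about as often as other genes, with a larger share of the calls towards the bud. There were 147 genes with at least 50 counts over the DAH3615 libraries and 0 in both DAH3615-MS libraries. In the flower 7 of them (4.76%) were higher, 16 (10.9%) lower and 124 (84.4%) not called, against 7.68% higher, 6.48% lower and 85.9% not called among all genes with at least 50 counts. Their median log2 ratio was 0.34 and that of all genes with at least 50 counts 0.01, and 96 of the 147 (65.3%) had a ratio above 1, against 50.7%. Together they took 1.36% of the bud counts and 1.63% of the flower counts. The group was chosen on the sterile libraries and on the sum over DAH3615, and so not on the direction between organs. Among the 106 of these genes with at least 200 counts, 5 were higher and 8 lower, so the lean of the calls was smaller.

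Of the 21 described genes in this group, the sugar transporters were the ones with the largest differences. One sucrose transporter 6, Cla000254, had 248 counts in the bud and 17 in the flower, 15.7-fold lower (9.64 to 27.5), and the other, Cla000359, had 321 and 24, 14.4-fold lower (9.53 to 22.9). Sucrose transporters of this kind import sucrose into cells. Both genes lie on chromosome 0, the unplaced part of the assembly, and whether they share reads was not tested. The bidirectional sugar transporter N3 Cla000966 had 307 and 34 counts, 9.74-fold lower (6.83 to 14.3). In the opposite direction, the monooxygenase Cla000755 had 508 and 1349 counts, 2.46-fold higher (2.22 to 2.73). The next 2 by size, GPI-anchored protein Cla002276 with 125 and 314 counts (ratio 2.33, 1.89 to 2.89) and pathogenesis related protein-1 Cla001626 with 1104 and 1873 (1.57), were not called.

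Values of 6 further genes of the group, picked after they were seen from those not called, show the levels at which differences under 2-fold occurred. Polygalacturonase Cla000006 had 1262 counts in the bud and 1108 in the flower. The multi-copper oxidase Cla003119 had 3154 and 5175, acetyl xylan esterase A Cla002736 had 2736 and 4375, and the invertase and pectin methylesterase inhibitor domain protein Cla000817 had 949 and 1406. Pathogenesis-related protein 1 Cla001631 was at 888 and 972 counts and an expansin-like protein, Cla001151, at 175 and 219. These 6 genes ran from 1.23-fold lower to 1.52-fold higher.

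**Figure D3:**
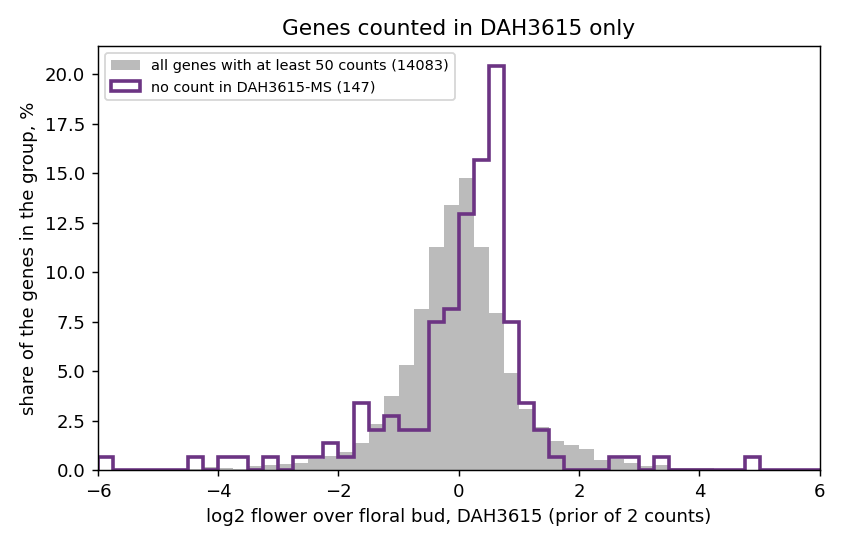
Share of genes (y axis, %) by log2 ratio of flower to floral bud in DAH3615 (x axis) for the 147 genes with no count in DAH3615-MS (line) and all 14083 genes with at least 50 counts (grey); 4 of the latter lie beyond the axis. The line is shifted to the right of the grey bars, with a median of 0.34 against 0.01, and has a thin tail on the left.

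Genes with more reads in DAH3615 than in DAH3615-MS had more calls towards the bud, while their median leaned the other way or not at all. Where the summed level of both organs was at least 10-fold higher in DAH3615 than in DAH3615-MS, 61 of 546 genes (11.2%) were lower in the flower and 15 (2.75%) higher, with a median log2 ratio of 0.41 towards the flower. Between 2-fold and 10-fold, 13.8% of 662 genes were lower and 6.04% higher (median −0.02), and under 2-fold 5.90% of 12875 genes were lower and 7.97% higher (median near 0). These groups contain the libraries that gave the calls, so the shares are a description.

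Cell wall enzymes were the list with the most genes lower in the flower. Of 30 measured, 9 (30.0%) were lower and 1 (3.33%) higher, against 5.44% and 6.19% of all genes, although the median log2 ratio was −0.02, as for all genes. Pectate lyases, which cleave pectin, were among them. Cla002742 had 6473 counts in the bud and 1000 in the flower, 6.99-fold lower (6.53 to 7.47), and Cla002573 had 1347 and 163, 8.92-fold lower. Expansin B1, Cla002283, which loosens walls, had 268 and 35 counts, 8.26-fold lower (5.80 to 12.1). All of these were also lower in DAH3615-MS, by 11.5-fold, 9.14-fold and 15.1-fold. With the polygalacturonase Cla001080 given above and a glucan endo-1,3-beta-glucosidase, Cla001408, with 14 counts in the bud and 1 in the flower, these were 5 of the 9 lower genes. The summed level of the list was 3312 CPM in the bud and 2374 CPM in the flower, a difference that rests on pectate lyase Cla002742, without which the sums were 2129 and 2205 CPM. Organ effects over both lines passed edgeR's test for 10 members lower and 1 higher, of 1496 and 1497 genes (7.58% and 7.59%) in all.

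Phenylpropanoid genes were called in both directions. Of 36 on the list, 6 (16.7%) were higher and 3 (8.33%) lower, against 6.19% and 5.44% of all genes. The median log2 ratio was 0.47, and 28 of the 36 had at least 20 counts. The prior gives the same 0.47 to a gene with 0 counts in the bud and 1 in the flower, so the median is not read as a shift. In DAH3615-MS 7 were higher and 3 lower, and the median over members with counts there was −0.20. Besides chalcone synthase, the genes higher in DAH3615 were 5 peroxidases, a family of enzymes of many roles that include cross-linking of lignin. Cla001849 had 35 counts in the bud and 366 in the flower, 9.69-fold higher (6.84 to 14.1), and Cla003190 had 36 and 287, 7.39-fold higher. On the same stretch of chromosome 2, and named after their values were seen, Cla003188 had 251 and 1574 counts (5.81-fold) and Cla003191 had 205 and 702 (3.17-fold). In DAH3615-MS these last 2 had ratios of 3.64 and 1.24, and the second was not called. The lower genes were the 4-coumarate-CoA ligase Cla002689 given above and 2 isoflavone reductase-like genes, also named after their values were seen. Cla001620 had 968 and 210 counts (4.97-fold lower) and 2 in each DAH3615-MS library, and Cla002685 had 820 and 353 (2.51-fold lower).

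Lipid and sugar genes showed both directions. Of 22 lipid and cuticle genes 5 (22.7%) were lower and 2 (9.09%) higher, against 5.44% and 6.19% of all genes. The median log2 ratio was −0.77, and 16 of the 22 had at least 20 counts. The direction was not the same in DAH3615-MS, where 4 were higher and 1 lower. EdgeR's test over both lines gave 3 higher and 2 lower. Beside the lipid-transfer protein Cla002146, the genes lower in DAH3615 that are named here were of low count. GDSL esterase/lipase Cla002186 had 39 counts in the bud and 1 in the flower, 42.1-fold lower (7.12 to 1705). GDSL esterase/lipase Cla002584 had 32 and 3, and the very long chain fatty acid elongation gene Cla002387 had 14 and 1. Of 16 sugar and starch genes 3 (18.8%) were lower and 2 (12.5%) higher, against 5.44% and 6.19% of all genes. In DAH3615-MS 2 were lower and 4 higher, and edgeR's test over both lines gave 5 lower and 3 higher. The 3 genes lower in DAH3615 were the transporters absent from DAH3615-MS. A second bidirectional sugar transporter N3, Cla002641, had 38 and 405 counts, 9.88-fold higher (7.07 to 14.2), and 99 and 436 in DAH3615-MS.

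Of 19 respiration genes 3 (15.8%) were called, against 11.6% of all genes, and edgeR's test over both lines called 1 higher and 5 lower. Malate dehydrogenase Cla002430 had 3261 counts in the bud and 1517 in the flower, 2.32-fold lower, and its description does not give its compartment. Succinyl-CoA ligase Cla000809, of the citric acid cycle, had 1269 and 597 and was 2.29-fold lower. Alternative oxidase, Cla002470, which passes electrons from ubiquinone to oxygen outside the cytochrome pathway, had 425 and 1288 counts and was 2.81-fold higher (2.51 to 3.14). Of 42 cell division genes 0 were higher and 3 (7.14%) lower. Of all genes 6.19% were higher and 5.44% lower, and of the described genes 6.10% and 4.29%. The 3 were tubulin alpha-2 chain Cla003129 with 918 and 307 counts (3.23-fold), histone H2B Cla001860 with 150 and 44 (3.68-fold) and cyclin D2 Cla001674 with 11 and 0. The cyclin gene was 3.96-fold lower with its 0 set to 3 counts, and the counting interval of its ratio began at 2.71-fold. None of 12 cytosolic ribosomal protein genes was called, with a median log2 ratio of −0.40. The ratio was above 1 for 3 of them, and the list summed to 774 CPM in the bud and 484 CPM in the flower. In DAH3615-MS the median was −0.62, with 1 called higher and 1 lower. EdgeR's test over both lines gave 0 higher and 2 lower. None of 13 meiosis and floral organ regulators was called in DAH3615, of which only 5 had 20 counts or more.

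**Figure D4:**
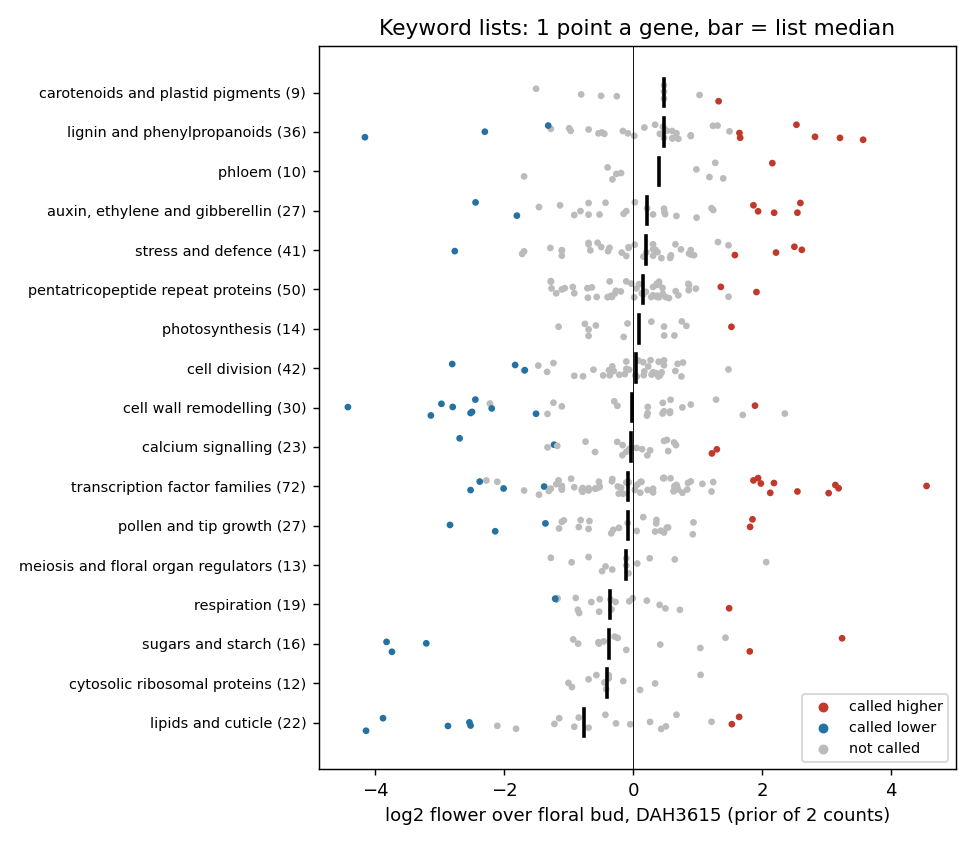
Log2 ratio of flower to floral bud in DAH3615 with a prior of 2 counts (x axis) for every gene of the 17 keyword lists (rows, number of genes in brackets), 1 point per gene; black bars are list medians, red genes were called higher and blue lower. Cell wall remodelling has 9 blue points and 1 red, and transcription factor families 4 blue and 10 red.

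Of 72 members of transcription factor families 10 (13.9%) were higher and 4 (5.56%) lower, against 6.19% and 5.44% of all genes, with a median log2 ratio of −0.09. Besides the homeobox leucine zipper gene, nuclear transcription factor Y subunit A-7, Cla000827, had 3 counts in the bud and 42 in the flower (13.0-fold, 4.15 to 65.4), subunit B-3, Cla000915, had 13 and 140 (9.98-fold, 5.65 to 19.2), and WRKY transcription factor 5, Cla002243, had 33 and 341 (9.57-fold, 6.69 to 14.1). Of 27 auxin, ethylene and gibberellin genes 5 (18.5%) were higher and 2 (7.41%) lower. This list shares 11 genes with the transcription factors, 3 of them called higher, and its direction was not the same in the sterile line, where 2 were higher and 3 lower; edgeR's test over both lines gave 3 higher and 4 lower. Ethylene-responsive transcription factors Cla000855, with 15 and 105 counts, and Cla002330, with 86 and 361, were 6.49-fold and 3.89-fold higher, and a SAUR-like auxin-responsive gene, Cla001500, with 8 and 47 counts was 5.44-fold higher. Auxin transporter-like protein 3, Cla000681, had 175 and 33 counts and was 5.72-fold lower (3.93 to 8.57).

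Of 41 stress and defence genes 4 (9.76%) were higher and 1 (2.44%) lower. That is 12.2% in all, near the 11.6% of all genes and the 10.4% of described genes. Late embryogenesis abundant-like protein Cla001088, of a family that protects cells during drying, had 13 counts in the bud and 97 in the flower (6.91-fold), heat stress transcription factor Cla002923 had 9 and 65 (6.69-fold), and harpin-induced protein-like Cla003142 had 5 and 33 (6.12-fold). The 1 lower gene was a cold acclimation protein, Cla001791, with 352 and 54 counts, 7.04-fold lower (5.27 to 9.55), and 3 and 0 in DAH3615-MS.

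Of 23 calcium signalling genes 2 (8.70%) were higher and 2 lower, against 6.19% and 5.44% of all genes. Of the described genes, from which the lists were drawn, 6.10% were higher and 4.29% lower. Calcium-dependent protein kinase Cla002497 had 656 counts in the bud and 1650 in the flower, 2.33-fold higher, and annexin Cla001954, of a family of calcium-dependent membrane-binding proteins, had 131 and 350, 2.48-fold higher (2.02 to 3.05). Annexin 2, Cla001842, had 709 and 325 counts, 2.35-fold lower, and a calmodulin-binding family gene, Cla000907, had 22 and 2, 11.9-fold lower (2.92 to 104).

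Markers of green tissue and phloem went both ways. The photosynthesis list summed to 1050 CPM in the bud and 1326 CPM in the flower, but to 910 and 924 CPM without chlorophyll a-b binding protein 8, and 7 of its 14 genes had a ratio above 1. The phloem list summed to 124 and 181 CPM, with 5 of its 10 genes above 1. On each list 1 gene was called, higher in the flower. Chlorophyll a-b binding protein 8, Cla001764, of the light-harvesting antenna, had 764 and 2370 counts (2.87-fold), and phloem protein 2, Cla001006, which is found in sieve elements, had 39 and 195 (4.63-fold, 3.27 to 6.71). Pheophorbide A oxygenase 2, Cla001857, an enzyme of chlorophyll breakdown, had 167 and 454 counts (2.52-fold). It was the 1 member called (11.1%) of 9 carotenoid and pigment genes. With 1 call each, these 3 lists are not set apart from all genes. Of 50 pentatricopeptide repeat genes, which bind organelle RNA, 2 (4.0%) were higher, against 6.19% of all genes. Cla000712 had 35 and 148 counts (3.92-fold) and Cla002131 had 95 and 266 (2.59-fold). The part of tissue shares in the other results was not tested.

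The organ difference was then set beside the same comparison in the sterile line. Its libraries entered the DAH3615 calls only through the TMM scaling, which was computed over all 4 libraries. In DAH3615-MS, 7.39% of 18833 genes were higher in the flower and 7.17% lower by the same rule. Of the 1187 DAH3615 genes called higher that had counts in DAH3615-MS, 1173 (98.8%) had a ratio above 1 there, where 49.3% of all genes did, and 855 were called higher. Of the 1034 called lower, 962 (93.0%) had a ratio below 1 and 681 were called lower. Over the 13161 genes with at least 50 counts in each line, the log2 ratios had a Pearson r of 0.85 across genes, which are not independent replicates. Buds of the lines were collected at different sizes, so stage and line cannot be told apart in this comparison.

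**Figure D5:**
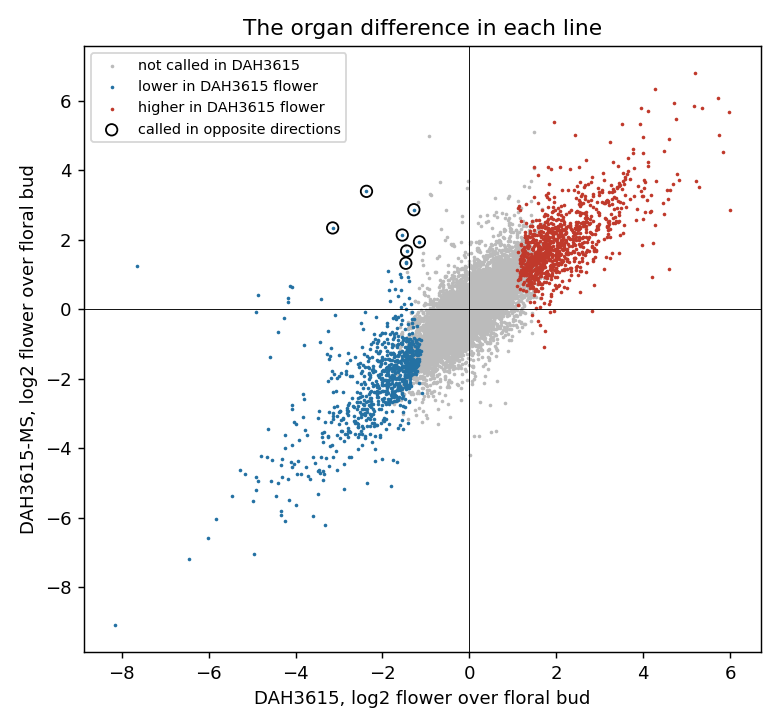
Log2 ratio of flower to floral bud in DAH3615 (x axis) and DAH3615-MS (y axis) for the 13161 genes with at least 50 counts in each line, 1 point per gene; red and blue mark the DAH3615 calls. Most points lie along the diagonal; the 7 circled genes, of the 9 called in opposite directions, were lower in the DAH3615 flower and higher in the DAH3615-MS flower.

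None of the genes called higher in DAH3615 was called lower in DAH3615-MS, and 9 genes called lower in DAH3615 were called higher in DAH3615-MS. Described among these were 2 adjacent models of a cation/H(+) antiporter 18, a membrane exchanger of cations for protons, on the same strand of chromosome 7 with 50 bases between them. Cla001748 had 476 counts in the DAH3615 bud and 98 in the flower, 5.24-fold lower (4.21 to 6.58), and 6 and 72 counts in DAH3615-MS, 13.6-fold higher. Cla001749 had 174 and 28 counts, 6.71-fold lower, and 3 and 21 counts, 7.93-fold higher. The DAH3615 bud was thus the highest and the DAH3615-MS bud the lowest of the 4 libraries at both models. Neither passed edgeR's test of a shared organ effect (adjusted p = 0.808 and 0.463). Both were chosen for opposite calls in the same libraries, so this result is partly set by the choice.

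Called genes were spread over the genome. Over chromosomes 1 to 11 the share called higher ran from 5.49% to 7.12% and the share called lower from 4.64% to 6.07%. A gene called higher had a neighbouring gene called higher in 238 of 1199 cases (19.9%), where 11.9% of all genes had such a neighbour. For genes called lower the shares were 21.0% and 10.5%. Adjacent gene models, as at exocyst complex component 7, are counted singly in these shares, and their part was not tested.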

How the data were processed

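RNA-seq was performed on 4 libraries. Per the labels, the authors used Trimmomatic, Bowtie2, TopHat2 and HTSeq, with version 1 of the watermelon reference genome, and deposited raw read counts per gene without normalization. Tool versions and the use of strand are not given in the sources used here, so overlapping genes cannot be told apart. Total counts per library were 5239032 to 6315796.

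Counts were scaled by TMM in edgeR 4.0.16 (R 4.3.3). With 1 library per organ, DAH3615 ratios were given exact 95% counting intervals in scipy 1.17.1, and called where the whole interval passed 2-fold. A count of 0 was set to 3, and list medians used a prior of 2 counts. The organ effect over both lines was tested by edgeR's quasi-likelihood test in the authors' additive model of line and organ (1 residual degree of freedom, Benjamini-Hochberg adjusted p under 0.01), which measures the agreement of the lines and not the spread between plants. Methods were tested on simulated data.

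Descriptions came from a supplementary table of which the first 1999 rows were at hand; its values were not used. The 17 lists were made by keyword. The members and lists were chosen with earlier results of these data known. Genes were named by a rule: with at least 100 counts and a description, the 8 largest called differences each way; the 2 largest each way with no description; up to 4 called genes per list and the pollen list genes with at least 20 counts; the 5 described genes with most reads per library; described genes called in opposite directions in the lines; and the 3 extreme described genes each way among those with no DAH3615-MS count. A further 10 genes were named after their values were seen. Alternatives were other size factors, count filters, thresholds and tests (DESeq2 1.42.0, limma 3.58.1).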

Additional observations from a re-analysis of the deposited data

Results flagged for a closer look

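The 2 adjacent models of cation/H(+) antiporter 18 differed in direction between the lines. The log2 ratio of flower to floral bud in DAH3615 was −2.39 at Cla001748 and −2.75 at Cla001749, while both were called higher in the DAH3615-MS flower. With 1 library per condition, the difference between the lines was not tested.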

How the results depend on the processing

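Counts of genes higher and lower in the DAH3615 flower (1199 and 1054) moved most with the rule for a call. They were 333 and 273 with the interval beyond 4-fold, 3086 and 3244 for a point ratio of 2 with no interval, and 65 and 65 in an exact test at a fixed coefficient of variation of 0.4; with a wider counting interval 682 genes were lower. Other size factors and count filters gave 1119 to 1242 higher and 1011 to 1136 lower. The share of DAH3615 calls with the same direction in DAH3615-MS (96.1%) was 87.1% for the point ratio and 96.9% for that wider interval. Of the 147 genes with no DAH3615-MS count, 4 were higher and 6 lower beyond 4-fold. Among the 106 with at least 200 counts, 5 were higher and 8 lower. With up to 2 counts allowed in each DAH3615-MS library, 9 of 276 genes were higher and 27 lower. Beyond 4-fold, 23 of the 452 list members were called in place of 74. Over all 19362 genes the calls beyond 4-fold were the 333 higher and 273 lower given above. Of the named genes, 36 were no longer called beyond 4-fold, and with library totals 2 were not (annexin Cla001954 and pentatricopeptide repeat gene Cla002131), all in the same direction. The likelihood ratio test gave 2385 higher and 2548 lower organ effects in place of 1497 and 1496. Leaving out any 1 library gave 0 genes in both directions in edgeR's quasi-likelihood test without the line term, with 3339 to 4547 genes at an unadjusted p under 0.05; the design then has 3 libraries. The labels give no replicate numbers to pair; the organ test compares flower and bud within each line through its line term.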
